A study of Mus musculus with 24 samples.

Results

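The transcription factor p53 (Trp53) and 9 genes of its response (Mdm2, Ccng1, Phlda3, Eda2r, Gdf15, Bax, Bbc3, Trp53inp1 and Sesn2) were examined in aged and young mouse tissues. The 10 genes were chosen by symbol, and each was read from the brightest probe whose RefSeq accession maps to it; they are 10 of the 22911 symbols found on the array. RNA came from white adipose tissue (WAT), liver, lung and kidney of male C57BL/6J mice, aged 10 weeks (10W, young) or 90 weeks (90W, aged), and was hybridised to 24 single-colour Agilent microarrays, with 3 mice per age and tissue. The aged livers are numbered 1, 2 and 4. No treatment and no engineered allele is given for any mouse, and the labels do not say whether 1 mouse gave several tissues. The arrays read whole tissue, so fewer cells of a type and less RNA per cell cannot be told apart.

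In unstressed cells p53 is held at a low level by Mdm2, a ubiquitin ligase that is itself a p53 target and so closes a feedback loop. DNA damage, oncogene activity or metabolic stress frees the protein, mostly without a change in its own mRNA, and p53 then binds its response elements and switches on genes of cell cycle arrest, death, DNA repair and secretion. Because p53 is controlled as a protein, its activity in tissue is often read from the mRNAs of its targets, although several of these genes also answer other factors, as Gdf15 and Sesn2 do to ATF4, the transcription factor of the integrated stress response.

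p53 recognises 2 copies of a 10-base motif separated by 0 to 13 bases. The consensus p53 response element was looked for in the RefSeq promoter windows of these genes (GRCm38.p6, 250 bases before to 50 bases after each transcription start), which were at hand for 9 of the 10 genes in 12 windows (no window for Trp53inp1). The C and G of each motif's CNNG core had to be kept, and mismatches were counted over the 20 bases of both copies; the element reads nearly the same on either strand, and matches may overlap. A match with at most 2 mismatches was held by 4.09% of all 32851 windows, and by those of Ccng1 and Bax among these genes. At 3 mismatches the share of all windows was 15.6%, and Bbc3 and Trp53 were added. The windows of Mdm2, Phlda3, Eda2r, Gdf15 and Sesn2 held none, which says only that these letters are not in that stretch. Both windows with the closest matches are shown, with that of the death gene Bbc3 and, for contrast, that of Phlda3, whose rise in liver and kidney was called under every alternative tried. All are written 5′ to 3′ on the strand of the gene, and capitals mark the matches with at most 2 mismatches or, in Bbc3, the match with 3 (a further Bax match with 3 mismatches, over the start, is left in lower case).
Ccng1, chr11:40755237-40755536, minus strand: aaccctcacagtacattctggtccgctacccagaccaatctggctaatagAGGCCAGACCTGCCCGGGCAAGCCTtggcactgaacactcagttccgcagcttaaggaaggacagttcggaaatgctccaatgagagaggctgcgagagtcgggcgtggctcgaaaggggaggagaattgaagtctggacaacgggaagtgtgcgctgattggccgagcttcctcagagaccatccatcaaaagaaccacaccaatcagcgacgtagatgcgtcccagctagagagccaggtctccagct
Bax, chr7:45466849-45467148, minus strand: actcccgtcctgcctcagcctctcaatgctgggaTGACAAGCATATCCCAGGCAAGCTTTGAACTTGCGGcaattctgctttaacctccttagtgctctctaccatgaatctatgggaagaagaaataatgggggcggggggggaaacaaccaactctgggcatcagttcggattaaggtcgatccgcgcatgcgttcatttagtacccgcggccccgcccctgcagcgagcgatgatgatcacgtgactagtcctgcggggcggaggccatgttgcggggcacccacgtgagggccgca
Bbc3, upstream start, chr7:16309333-16309632, plus strand: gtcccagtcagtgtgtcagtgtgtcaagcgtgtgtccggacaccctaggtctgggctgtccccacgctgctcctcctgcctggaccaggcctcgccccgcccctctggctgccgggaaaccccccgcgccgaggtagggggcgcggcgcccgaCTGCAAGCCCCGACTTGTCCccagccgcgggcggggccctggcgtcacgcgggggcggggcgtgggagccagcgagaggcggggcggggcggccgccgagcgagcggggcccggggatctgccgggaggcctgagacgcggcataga
Phlda3, chr1:135765835-135766134, plus strand: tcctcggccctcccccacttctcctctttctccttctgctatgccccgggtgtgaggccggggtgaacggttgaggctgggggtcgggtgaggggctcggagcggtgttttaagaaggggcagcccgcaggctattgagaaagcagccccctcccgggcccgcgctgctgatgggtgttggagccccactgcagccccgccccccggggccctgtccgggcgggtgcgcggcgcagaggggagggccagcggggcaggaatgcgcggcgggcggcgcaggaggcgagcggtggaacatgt
The Ccng1 match with 1 mismatch and no spacer lies 195 to 176 bases before the start. In Bax a pair of overlapping matches with 2 mismatches covers 216 to 181 bases before the start, and in Bbc3 the match with 3 mismatches lies 97 to 78 bases before it. A match is a description of the sequence and does not show binding.

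Signals are given as log2 of the array's processed signal minus the 75th percentile of that array, so 0 stands for the 75th percentile and a difference of 1 for a doubling. Within a tissue, 90W and 10W mice were compared with limma, and a gene was called higher or lower at a Benjamini-Hochberg adjusted p under 0.05 over all 27905 to 31505 entries tested in that tissue. An array had 58.6% to 71.1% of its probes well above background, no spot was saturated, and arrays of 1 group correlated at 0.979 or more except the young WAT of replicate 1, which correlated at 0.942 with its furthest partner. Each tissue lies on 1 slide of its own that holds both ages, so the comparison with age is free of the slide, whereas levels of tissues and slides cannot be told apart.

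The kidney had the most calls among the 10 genes, as it had among all entries, and the lung had none among the 10. In the kidney 6 of the 10 genes (Trp53, Phlda3, Eda2r, Gdf15, Bbc3 and Trp53inp1) were higher in aged mice and 1 (Ccng1) was lower, in the liver 3 (Phlda3, Eda2r and Gdf15) were higher, in WAT 1 (Gdf15) was higher, and in the lung none was called. A probe was tested if well above background on 3 or more of its 6 arrays, which Eda2r met in liver and kidney only through its aged mice. That fixed its direction there, so its calls in liver and kidney add no separate support. These counts stand against a background in which 20.6% of all kidney entries were called higher and 42.6% lower, 10.5% and 17.0% in the liver, 2.01% and 0.579% in WAT, and 2.72% and 2.89% in the lung. In the kidney, calls in either direction made up 63.1% of all entries, near the 7 of 10 here, whereas most calls among the 10 genes were higher and most among all entries lower; with arrays set to the spike-in spots that contrast goes, since 9227 of all kidney entries were then higher and 4426 lower. The median change of the 10 genes was 0.56 in the kidney, 0.42 in the liver, 0.38 in WAT and 0.11 in the lung, where the median of all entries was -0.23, -0.20, -0.05 and -0.08. In the lung limma gave 1 gene with an unadjusted p under 0.05, Gdf15, and the methods' t-test, adjusted in the same way, called none.

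**Figure D1:**
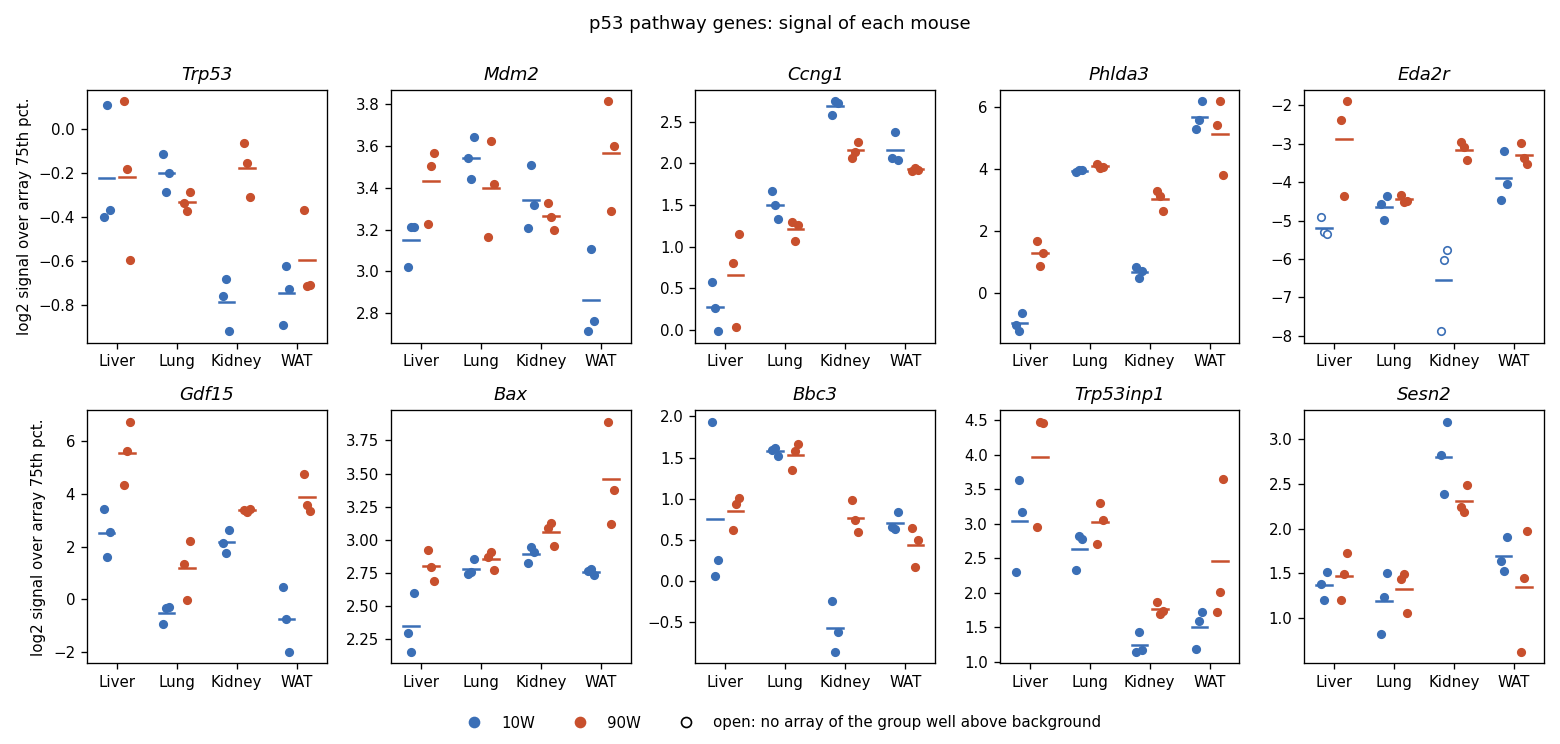
Signal of each mouse for the 10 p53 pathway genes, as log2 over the array's 75th percentile (vertical axis, a scale of its own for each gene), in 4 tissues at 10W (blue) and 90W (red); bars are means of 3 mice and open points mark groups with no array well above background. Gdf15 is higher in every aged mouse than in every young mouse of the same tissue in all 4 tissues, and Phlda3 separates the ages in liver, lung and kidney, with mean differences of 2.25, 0.14 and 2.33.

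Trp53 itself encodes the factor. In the kidney its signal was -0.76, -0.68 and -0.92 in young mice and -0.06, -0.15 and -0.31 in aged mice. All aged kidneys lay above all young ones, and the gene was higher by 0.61 ± 0.10 (SE, n = 3 per age; 1.53-fold, adjusted p = 0.0032). In the other tissues the change of Trp53 was 0.00 in the liver (adjusted p = 0.992), 0.15 in WAT (adjusted p = 0.688) and -0.13 in the lung (adjusted p = 0.374), where the aged values nevertheless lay all below the young ones, -0.34, -0.37 and -0.28 against -0.11, -0.28 and -0.20. Groups that do not overlap were common in these data: 35.8% of all lung entries, 49.9% in the liver, 70.7% in the kidney and 28.8% in WAT separated the ages in either direction.

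Mdm2, the ligase that degrades p53, was called in no tissue. Its WAT signal was 2.71, 3.11 and 2.76 in young mice and 3.81, 3.29 and 3.60 in aged mice. The aged mice lay above the young, with a difference of 0.71 ± 0.21 and an adjusted p of 0.155; with all 24 arrays in 1 fit the adjusted p was 0.00284. In the liver the ages were also apart, 3.02, 3.21 and 3.21 against 3.23, 3.50 and 3.57 (0.28, adjusted p = 0.224). Differences in the kidney (-0.08) and lung (-0.14) were small, and a second Mdm2 probe gave 0.04 and 0.24 there, with 0.63 in WAT.

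Ccng1 encodes cyclin G1, which recruits a phosphatase to Mdm2. It was the only one of the 10 genes called lower in any tissue. Young kidneys read 2.58, 2.75 and 2.73 and aged kidneys 2.07, 2.14 and 2.26. The groups were apart and the change was -0.53 ± 0.09 (0.694 of the young level, adjusted p = 0.0033). This call depends on the scaling: with arrays set to the spike-in spots, which moves the median of all kidney entries from -0.23 to 0.15, Ccng1 changed by -0.14 (adjusted p = 0.425). In the lung and in WAT the aged mice also lay all below the young, by -0.29 (adjusted p = 0.198) and -0.23 (adjusted p = 0.488), and in the liver the difference was 0.39 with overlapping groups (adjusted p = 0.363).

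Phlda3, a small pleckstrin homology protein that competes with Akt for membrane lipids and so restrains it, rose in liver and kidney. In the liver it read -1.04, -1.23 and -0.65 in young mice and 1.68, 0.86 and 1.29 in aged mice. In the kidney it read 0.83, 0.49 and 0.71 in young mice and 3.30, 3.11 and 2.64 in aged mice. Every aged mouse was over every young mouse in both tissues. The rise was 2.25 ± 0.26 in the liver (4.76-fold, adjusted p = 0.00318) and 2.33 ± 0.19 in the kidney (5.05-fold, adjusted p = 0.000262), and it was called under all 16 alternatives in each. The lung stayed between 3.88 and 3.96 in young mice and between 4.01 and 4.15 in aged mice (0.14, adjusted p = 0.337). In WAT 1 aged mouse was low, with 5.29, 5.56 and 6.17 at 10W against 5.41, 6.18 and 3.80 at 90W (-0.54, adjusted p = 0.672). Read by the same probe, the young levels ran from 5.67 in WAT through 3.94 in the lung and 0.68 in the kidney to -0.98 in the liver, with no overlap between neighbours in that order, and the span between the highest and the lowest tissue was 6.65 at 10W and 3.85 at 90W. Tissue and slide cannot be told apart in these levels.

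Eda2r encodes the receptor for ectodysplasin A2, a member of the TNF receptor family. Its probe was well above background in no young liver or kidney and in all aged ones. Young kidneys read -7.88, -6.02 and -5.77, and aged kidneys -2.95, -3.10 and -3.42. Aged and young kidneys were far apart, and the gene was at least 4.87-fold higher with age, taking for each young array the higher of the probe's own signal and the dimmest signal called well above background (adjusted p = 0.00256). Young livers read -4.91, -5.30 and -5.35 and aged livers -2.39, -4.36 and -1.89. The aged liver of replicate 2 sat close to the young ones, and the bound was at least 3.19-fold (adjusted p = 0.031). That liver call held under 8 of 16 alternatives: leaving out young replicate 1, 2 or 3 or aged replicate 1 or 4 gave adjusted p = 0.0756, 0.0935, 0.076, 0.0814 and 0.0616, and without aged replicate 2 it was kept. A second probe for Eda2r was likewise above background in no young liver or kidney, in 2 aged livers and in all aged kidneys, and another was above background on no array. The second probe differed by 1.20 (log2) in the kidney and 1.14 in the liver. With normexp background the first probe changed by 1.39 in the kidney and 1.01 in the liver. All of these are smaller than the bounds above, which hold only for the first probe as reported. In lung and WAT all mice were above background, and the changes were 0.20 (adjusted p = 0.498) and 0.61 (adjusted p = 0.403).

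Gdf15 is a secreted protein of the TGF-β family that lowers food intake through a receptor in the hindbrain, and it is induced by p53 and by the integrated stress response. It was the only gene of the 10 whose aged mice lay above all young mice in all 4 tissues. In WAT it read 0.47, -0.76 and -1.99 in young mice and 4.76, 3.58 and 3.36 in aged mice. This difference of 4.66 ± 0.69 (25.3-fold, adjusted p = 0.0309) was the largest of the set in any tissue. The liver read 3.42, 1.59 and 2.55 at 10W and 4.34, 5.65 and 6.74 at 90W, which gave 3.05 ± 0.67 (8.31-fold, adjusted p = 0.0202). In the kidney the values were 2.13, 1.78 and 2.64 against 3.39, 3.32 and 3.44, a rise of 1.20 ± 0.21 (2.3-fold, adjusted p = 0.00371). The aged kidneys differed from each other by little, whereas the aged livers spread over more than the kidney's whole change. The lung was not called, with -0.93, -0.33 and -0.28 against 1.36, -0.02 and 2.21 (1.70 ± 0.56, adjusted p = 0.128); without aged replicate 2, the low one, the change was 2.30 (adjusted p = 0.0294).

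The Gdf15 calls in WAT and liver did not all hold when single mice were left out. In WAT the change ran from 4.05 to 5.28 over all alternatives, while leaving out young replicate 2 or 3 or aged replicate 1, 2 or 3 gave adjusted p = 0.0999, 0.0675, 0.107, 0.073 and 0.0805. Without young WAT replicate 1, the array that stands apart, the gene was still called. The WAT call was also lost with dim probes kept and under the methods' t-test, which called 1 WAT entry in all, and it held under 9 of 16 alternatives. In the liver the change ran from 2.47 without aged replicate 4 to 3.67 without aged replicate 1, and the call was lost without young replicate 2 (adjusted p = 0.0672) or young replicate 3 (adjusted p = 0.0503). The liver call was also lost under the replicate block and the methods' t-test, and it held under 12 of 16 alternatives. In the kidney the call was lost with all 24 arrays in 1 fit (adjusted p = 0.154).

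**Figure D2:**
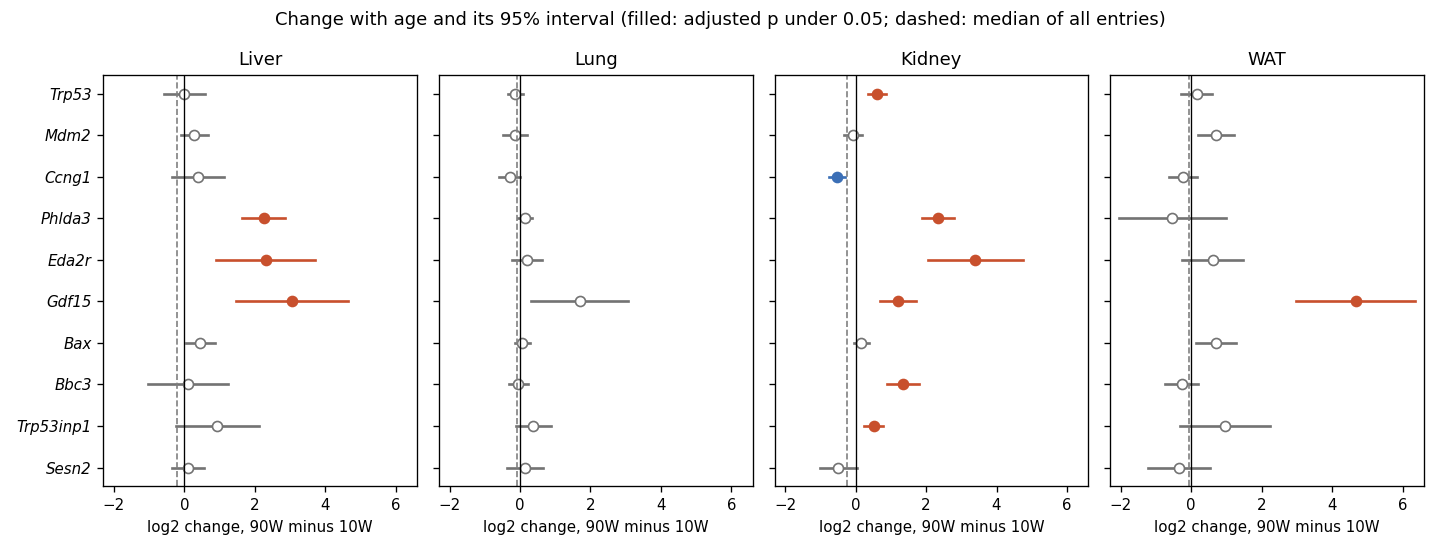
Change with age of each of the 10 genes in each tissue, as log2 signal at 90W minus 10W (horizontal axis), with its 95% interval from limma; filled points have an adjusted p under 0.05 (red higher, blue lower); the liver and kidney values of Eda2r are taken against young mice that were not above background and are not exact sizes, and the dashed line is the median of all entries of the tissue. The kidney has 7 filled points, the liver 3, WAT 1 and the lung none.

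Bax and Bbc3 belong to the death branch. Bax forms pores in the outer mitochondrial membrane, and Bbc3 (PUMA) is a BH3-only protein that frees it to do so. Bbc3 read -0.24, -0.86 and -0.62 in young kidneys and 0.98, 0.74 and 0.60 in aged kidneys. The kidneys were apart by age and Bbc3 rose by 1.34 ± 0.18 (2.53-fold, adjusted p = 0.00134), under all 16 alternatives. The young kidney read lowest of the 4 tissues for this probe (-0.57, against 0.71 to 1.57 in the others), and the aged kidney at 0.77 lay between aged WAT and aged liver. Such an order of levels cannot be told apart from the slides. Elsewhere Bbc3 differed by 0.10 in the liver, where 1 young mouse read 1.93 and the others 0.06 and 0.25, by -0.04 in the lung and by -0.27 in WAT, with adjusted p of 0.883, 0.816 and 0.474.

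Bax was called in no tissue, though its aged mice lay all above the young in liver, kidney and WAT. WAT read 2.76, 2.78 and 2.73 against 3.89, 3.12 and 3.38, a difference of 0.71 ± 0.23 with an adjusted p of 0.184. The young WAT values lay close together and the aged ones were spread. The liver difference was 0.45 (adjusted p = 0.0937), the kidney's 0.17 (adjusted p = 0.133) and the lung's 0.07 (adjusted p = 0.636). With all 24 arrays in 1 fit, Bax was called higher in the liver (adjusted p = 0.0208) and WAT (adjusted p = 0.00261), and in the kidney it was called after quantile normalization (0.45, adjusted p = 0.00612) and with spike-in scaling (0.55, adjusted p = 0.0224).

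Trp53inp1, a stress-induced nuclear protein that also takes part in autophagy, had a positive difference in all 4 tissues and was called in the kidney. Young kidneys read 1.15, 1.44 and 1.16 and aged kidneys 1.87, 1.69 and 1.73. The groups were apart, by 0.51 ± 0.11 (1.43-fold, adjusted p = 0.00787); with all 24 arrays in 1 fit the adjusted p was 0.364. Larger differences in the liver (0.93, adjusted p = 0.193) and WAT (0.96, adjusted p = 0.369) came with overlapping groups, and in WAT 1 aged mouse at 3.65 stood over the other two at 1.72 and 2.01. A second probe gave 0.47 in the kidney, 0.66 in the liver, 0.76 in the lung and 0.94 in WAT.

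Sesn2, a leucine sensor that restrains mTORC1, was called nowhere. In the kidney it read 2.82, 2.38 and 3.19 in young mice and 2.24, 2.18 and 2.49 in aged mice. The difference of -0.49 ± 0.21 missed the threshold (adjusted p = 0.0864), and without young replicate 2, whose value lies among the aged ones, it was -0.70 (adjusted p = 0.0165). It was 0.11 in the liver, 0.14 in the lung and -0.35 in WAT, with adjusted p of 0.684, 0.694 and 0.633.

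Whether the change with age differed among the 4 tissues was asked with a moderated F test over all 24 arrays, in which 37.5% of 25772 entries were called. Among the 10 genes, 5 were called. Phlda3 changed by 2.25, 0.14, 2.33 and -0.54 in liver, lung, kidney and WAT (adjusted p = 0.000837). Eda2r was also called (adjusted p = 0.00676), but its liver and kidney terms rest on young values that were not above background, and with normexp background the adjusted p was 0.0727. Mdm2 (0.28, -0.14, -0.08 and 0.71, adjusted p = 0.0127) and Gdf15 (3.05, 1.70, 1.20 and 4.66, adjusted p = 0.0233) had their largest changes in WAT and liver. Bbc3 had its largest change in the kidney (adjusted p = 0.0288). The F test does not place a difference in any tissue. Within tissues Gdf15 was called higher in the kidney too, and Mdm2 was called in none. For Trp53 (adjusted p = 0.0625), Bax (0.067), Ccng1 (0.0685), Sesn2 (0.368) and Trp53inp1 (0.77) a difference between tissues was not shown. Phlda3 was called under every alternative to this test, and Eda2r whichever replicate number was left out; Gdf15, Mdm2 and Bbc3 were all lost without the young mice numbered 3 or the aged mice numbered 1. Gdf15 and Bbc3 were also lost without the young or the aged mice numbered 2 (in the latter case Bax and Ccng1 were called), Mdm2 without the young mice numbered 1, and Mdm2 and Bbc3 without the aged mice numbered 3. Without the aged liver numbered 4, Trp53 was called as well.

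Beyond the 10 genes, 50 further p53 targets were sorted by role. In the kidney 24 of the 48 tested were higher and 15 lower, in the liver 10 and 7 of 47, in the lung 4 and 2 of 48, and in WAT limma called none of 48, with 7 at an unadjusted p under 0.05 and none by the methods' t-test. Their median change was 0.28 in the kidney, 0.28 in the liver, -0.09 in the lung and 0.13 in WAT. By role, and beside the 20.6% higher and 42.6% lower of all kidney entries, of the arrest genes tested in the kidney 8 of 10 were higher and none lower (median 1.61), of the death genes 7 of 12 higher and 4 lower (0.48), and of the metabolic targets 5 of 13 higher and 7 lower (-0.28). In the liver, where the shares of all entries were 10.5% and 17.0%, 4 of 9 arrest genes were higher (median 1.80), and 4 of 13 metabolic targets were lower and none higher (-0.25). The arrest calls include the spindle genes Ckap2 and Psrc1 in both tissues. In the liver Psrc1 passed the filter only through its aged mice, which set its direction, and it is also among the 10 targets higher there. Markers of cycling cells were also higher, 5 of 5 in the kidney and 4 of 5 in the liver. The list is therefore no reading of arrest alone. The wider pathway set holds the targets, the regulators and the p53 relative Trp63, which was called higher in the liver, by 1.62. Its 24 liver calls became 11, 9 or 13 without young replicate 1, 2 or 3. They became 14 without aged replicate 1 or 2 and 26 without aged replicate 4. The 7 lung calls became 0 without young replicate 1 or 2, 2 without young or aged replicate 3, and 4 without aged replicate 2.

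Cdkn1a, which encodes the cyclin-dependent kinase inhibitor p21 and is the best known arrest target, read -1.15, -0.76 and -0.52 in young kidneys and 0.99, 1.04 and 0.97 in aged kidneys. Every aged kidney was higher, by 1.81 ± 0.16 (adjusted p = 0.000363). The liver difference was as large but the mice overlapped, with 0.57, 0.25 and -0.91 against 0.55, 2.19 and 2.60 (1.81 ± 0.60, adjusted p = 0.0607). It was 0.34 in the lung (adjusted p = 0.647) and 0.18 in WAT (adjusted p = 0.815).

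Several targets were called in the same direction in liver, lung and kidney. Pmaip1 (Noxa), a BH3-only protein, rose by 2.40, 1.03 and 1.54, and Ckap2 and Psrc1, both of the mitotic spindle, by 2.06, 0.98 and 2.12 and, for Psrc1, by at least 3.49-fold in the liver, where no young array was above background, and by 0.59 and 3.07 in lung and kidney. The direction of the Psrc1 call in the liver was set by the filter, so that call adds no separate support. Perp, a desmosomal protein linked to p53-dependent death, fell by 0.68, 0.69 and 0.90. Thbs1, a matrix glycoprotein, rose by 3.25 in the liver, where 2 of 3 young arrays were above background, and by 1.12 in the kidney. Not all of these calls were firm: the lung calls of Psrc1, Perp, Pmaip1, Cdkn2a and Ckap2 held under 6, 7, 8, 12 and 13 of 16 alternatives and the liver calls of Perp and Thbs1 under 6 and 13; Thbs1 was lost without young replicate 1 or 2.

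**Figure D3:**
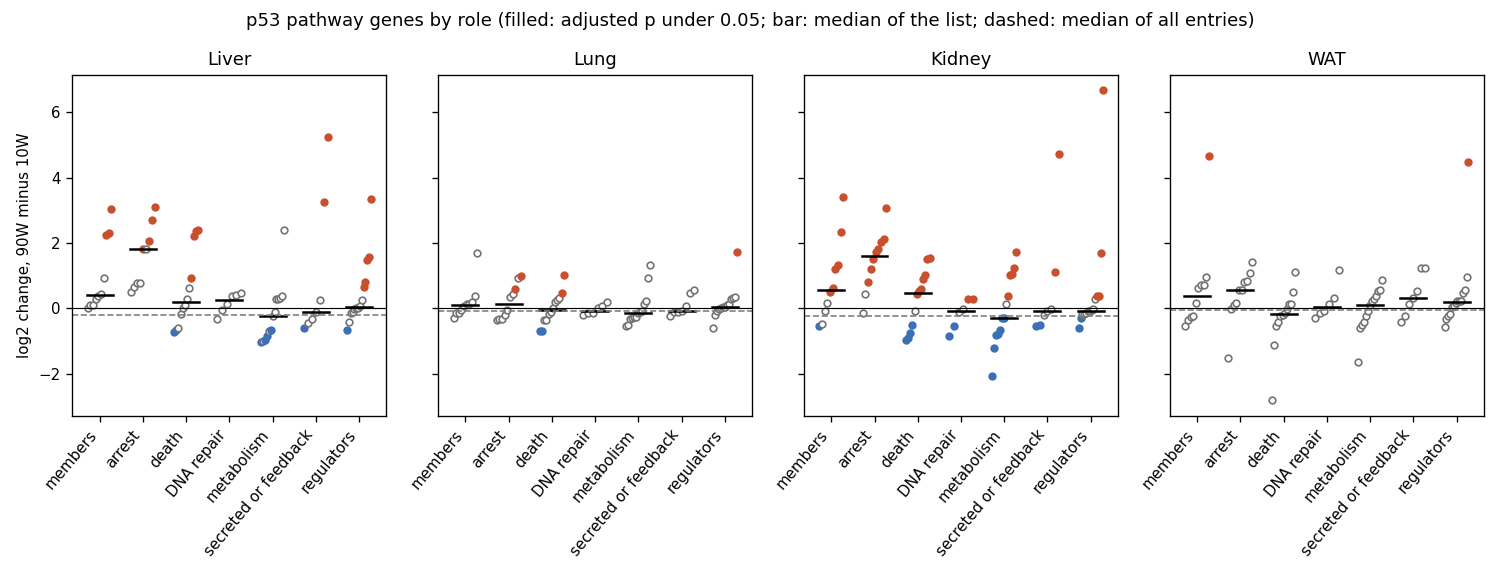
Change with age (log2, 90W minus 10W, vertical axis) of the 10 genes and of further p53 targets and regulators by role, 1 point per gene tested; filled points have an adjusted p under 0.05, black bars are list medians and the dashed line is the median of all entries of the tissue. In the kidney the arrest genes lie mostly above 0 and the metabolic targets on both sides, and WAT shows 2 filled points, Gdf15 and Cdkn2a.

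Among 14 regulators of p53, Cdkn2a, whose locus encodes p16 and the Mdm2 inhibitor p19Arf, was called higher in all 4 tissues, by 3.35 (liver, with 1 of 3 young arrays above background), 1.71 (lung) and 4.47 (WAT), and at least 22.2-fold in the kidney, where no young array was above background. The probe does not tell apart what the locus encodes. In all, the kidney had 4 of 14 regulators higher and 2 lower, beside 20.6% and 42.6% of all entries. The liver had 5 of 14 higher and 1 lower, beside 10.5% and 17.0%. The lung had 1 of 13 higher and WAT 1 of 14, beside 2.72% and 2.01%. The kidney counts include Cdkn2a and Chek1 and the liver count Chek1, and there the filter set their direction. Mdm4, the partner of Mdm2, differed by -0.41, 0.28, -0.06 and -0.33 in liver, lung, kidney and WAT, and Ppm1d, the phosphatase that ends the response, by 0.26, -0.11, -0.20 and 0.13, and neither was called in any of them. The acetyltransferase Crebbp rose by 1.58 in the liver and the kinase Hipk2 fell by 0.65 in the liver and 0.59 in the kidney, where its change was -0.20 with spike-in scaling (adjusted p = 0.329) and the call was also lost with all 24 arrays in 1 fit. The checkpoint kinase Chek1 was above background in no young liver or kidney; the aged kidneys exceeded that background by at least 2.52-fold, no fold can be given for the liver (adjusted p = 0.0214, held under 11 of 16 alternatives), and both calls were lost with normexp background (adjusted p = 0.125 and 0.792).

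Because Gdf15 and Sesn2 also answer ATF4, 13 ATF4 targets were read beside them. In the kidney 4 of 12 were higher and 3 lower, in the liver 1 of 12 higher and 3 lower, and in the lung and in WAT limma called none of 13, with 3 and 4 at an unadjusted p under 0.05 and none by the methods' t-test. Of all entries, 20.6% were called higher and 42.6% lower in the kidney, and 10.5% and 17.0% in the liver. Asns, asparagine synthetase, rose by 1.48 in the kidney and Phgdh, of serine synthesis, by 2.78 in the liver and 0.44 in the kidney. Cth, which makes cysteine, fell by 1.38 and 1.66 in liver and kidney, Slc3a2, an amino acid transporter chain, by 0.94 and 0.55, and the mitochondrial serine enzyme Shmt2 by 0.68 and 1.27. The liver call of Cth held under 9 of 16 alternatives (lost without young replicate 1 or 2 or aged replicate 1 or 2), that of Phgdh under 11 (lost without any young replicate or aged replicate 1) and that of Slc3a2 under 13. In WAT the ATF4 targets ran from -2.75 to 3.31, with a median of 0.22.

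Markers of other cells moved with age in the same tissues. Of 6 macrophage markers 5 were higher in the liver, 5 in the kidney, 2 in WAT and none in the lung, also at an unadjusted p under 0.05, and their summed signal (log2) was 5.53 to 5.90 in young and 7.39 to 7.64 in aged livers, 5.14 to 5.40 and 6.26 to 6.73 in kidneys, 5.53 to 6.75 and 7.70 to 8.79 in WAT, and 6.19 to 6.24 and 6.36 to 7.19 in lungs. Of 6 B and plasma cell markers 6 were higher in the kidney, 6 in WAT, 3 in the liver and none in the lung (1 at an unadjusted p under 0.05), with summed signals in the kidney from -0.32 to 0.10 in young and from 5.62 to 6.37 in aged mice. Of 5 markers of cycling cells 5 were higher in the kidney, 4 each in liver and lung and none in WAT, where all 5 had an unadjusted p under 0.05. Of 5 T cell markers 4 were higher in the lung, 4 in the kidney (with 1 lower), 3 in WAT and 2 in the liver. In the lung their summed signal was 3.23 to 3.38 in young and 4.16 to 4.68 in aged mice. In the liver the other 3 lay lower in every aged than in every young mouse. There the summed T cell signal was 5.42 to 5.91 in young and 5.25 to 5.34 in aged mice. Neutrophil markers were 1 of 6 higher in liver and in lung, 3 of 5 higher and 1 lower in the kidney and none of 5 called in WAT, with summed signals of 2.08 to 3.23 against 4.25 to 10.44 in the liver and 5.69 to 7.04 against 7.28 to 10.36 in the lung. In the lung 1 of 4 adipocyte markers was lower. Their summed signal there was 4.34 to 5.41 in young mice and less in each aged mouse, down to 1.39. In the kidney 3 were higher and 1 lower, with summed signals of 3.49 to 3.81 in young and 4.08 to 4.24 in aged mice. Of 2 tested in the liver Fabp4 was higher and Lep lower, and the summed signal was 2.45 to 2.76 against 4.12 to 4.46. In WAT none of 4 was called. Of 4 hepatocyte markers 1 was lower in the liver. Their summed signal was 11.748 to 11.975 in young and 11.211 to 11.408 in aged livers. All 4 kidney tubule markers fell in the aged kidney, with a summed signal of 10.34 to 10.59 against 9.16 to 9.80. The part of these cells in the changes of the p53 genes was not tested. The labelled tissues carried their own markers, with summed signals of 11.21 or more for hepatocyte genes in every liver, 10.52 or more for epithelial genes in every lung and 9.31 or more for adipocyte genes in every WAT sample.

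**Figure D4:**
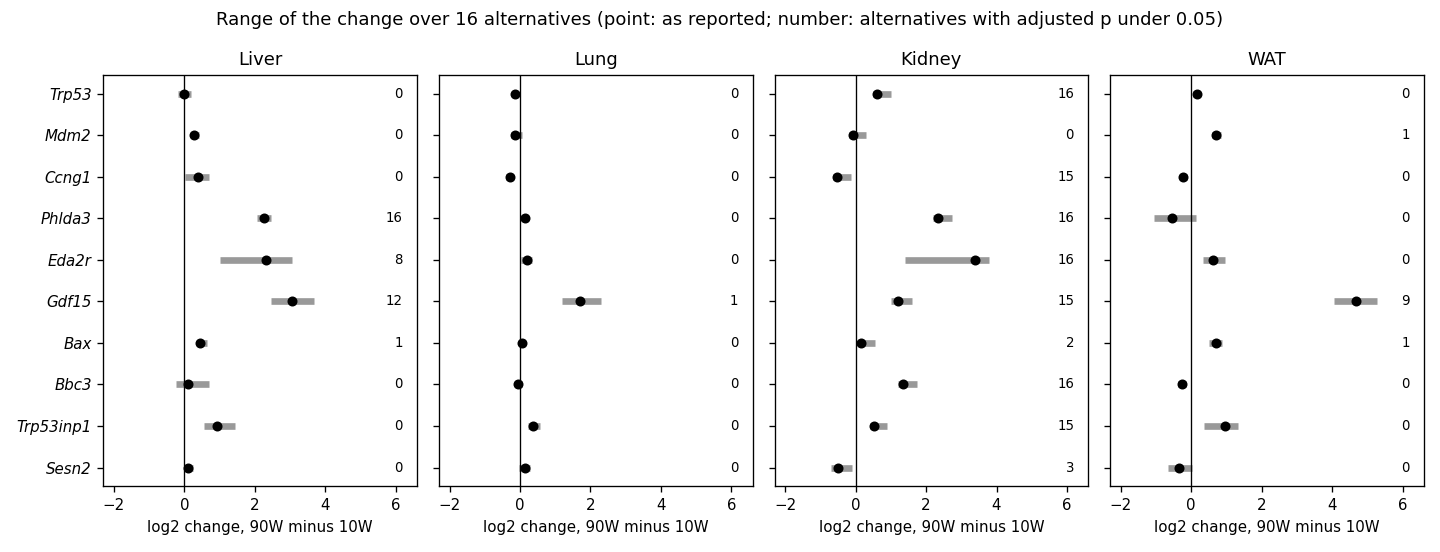
Change with age of each of the 10 genes (log2, 90W minus 10W, horizontal axis) as reported (point) and its range over 16 alternative ways of processing, left-out mice included (grey bar); the number at the right of each row counts the alternatives with an adjusted p under 0.05. Phlda3 in liver and kidney and Trp53, Eda2r (its direction set by the filter) and Bbc3 in the kidney were called under all 16.

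Across the 40 combinations of gene and tissue, 30 kept their direction under all 16 alternatives, and of the 11 calls 5 were kept under all of them. Eda2r in liver and kidney is among the 30, and in the kidney among the 5, although the filter set its direction there.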

How the data were processed

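Per the file headers, the authors read single-colour scans with Agilent Feature Extraction 11.0.1.1 and deposited a processed intensity per spot, after background subtraction and not scaled between arrays, for a mouse design on the build mm9; the methods name a human kit. Spots flagged as uneven or outlying were left out. The deposited intensity was put on the log2 scale, spots of a probe were averaged and the 75th percentile of the array was subtracted. Accessions, without version, were matched to RefSeq genes of GRCm38.p6: 32994 of 56605 probes gave a symbol. In each tissue a probe had to be well above background on 3 or more of its 6 arrays, and the brightest stood for its gene. 90W and 10W mice were compared by limma 3.58.1 (lmFit, eBayes; R 4.3.3), and p-values were adjusted by Benjamini-Hochberg, threshold 0.05. Where no array of a group was above background, the least fold that the background allows is given, while fits and plots use the measured values. Such a gene passed the filter only through its other group, so the direction of its call was set by the filter. Differences between tissues were tested by limma's moderated F test over 24 arrays.

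An exact permutation test of 3 against 3 mice cannot go below 0.1 and was not used. Nothing says that the mice of a group came from separate litters or cages, and the p-values measure the spread between these samples. Same-numbered mice differ in age and so are different animals, and the correlation of their deviations lay between -0.17 and 0.18, so no block was used. The 10 genes and all lists were chosen with earlier results of these data known. Named beside them are Cdkn1a, Mdm4, Ppm1d and Cdkn2a, the 3 largest called changes without overlap per list (targets, regulators, ATF4 targets) and tissue, and pathway genes called alike in at least 3 tissues. A gene that this rule also names is not reported here. The fits were tested on simulated data. The 16 alternatives per tissue are normexp background, quantile, median and spike-in scaling (7 spike-in probes), dim probes kept, probes of a gene averaged, all 24 arrays in 1 fit, entries with a symbol alone, a replicate block, the methods' t-test, and each mouse left out. No set test was run.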

Additional observations from a re-analysis of the deposited data

Results flagged for a closer look

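For 5 of the 10 genes the change with age differed between the 4 tissues by the moderated F test, which called 37.5% of all 25772 entries tested. The adjusted p was 0.000837 for Phlda3, which was higher in aged liver and kidney and changed by 0.14 in the lung and -0.54 in WAT. It was 0.00676 for Eda2r (0.0727 with normexp background), 0.0127 for Mdm2, 0.0233 for Gdf15 and 0.0288 for Bbc3. No single tissue passed the test for Mdm2, and with spike-in scaling its adjusted p was 0.0567.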

How the results depend on the processing

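Of the 40 combinations of gene and tissue, 30 kept their direction under all 16 alternatives. Eda2r in liver and kidney, where the filter set its direction, is among them. The number of the 10 genes called in the liver was 3, and 1 under the replicate block and under the methods' t-test, with 1 to 3 when a mouse was left out. In WAT it was 1, 0 without the filter on dim probes and under the t-test, 3 with all 24 arrays in 1 fit and 0 to 1 with a mouse left out, and in the lung 0, or 0 to 1. In the kidney it lay between 5 and 8. Of the wider pathway genes the liver had 24 calls, 12 under the replicate block, 8 under the t-test and 9 to 26 with a mouse left out. The lung had 7, with 4 under spike-in scaling, 2 without the filter, 3 with all 24 arrays, 0 under the replicate block, 2 under the t-test and 0 to 5 with a mouse left out. The kidney's 45 became 28 with all 24 arrays, and the single call in WAT became 11 with all 24 arrays, 0 under the t-test and 1 to 2 with a mouse left out. The 5 genes whose change differed between tissues were 2 to 6 when the mice of 1 number and age were left out. Why these counts moved was not tested.

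The split of all calls turned with the scaling: with spike-in scaling 9227 kidney entries were higher and 4426 lower, against 6483 and 13410 as reported, and in the liver 2517 and 967 against 2928 and 4749. The median of all entries moved from -0.20 to -0.09 in the liver and from -0.08 to -0.18 in the lung. Directions that turned all belong to changes that were not called. With a mouse left out, Trp53 ran from -0.17 to 0.19, Bbc3 from -0.24 to 0.70 and Sesn2 from -0.016 to 0.25 in the liver, Bbc3 from -0.11 to 0.044 and Sesn2 from -0.040 to 0.30 in the lung, Mdm2 from -0.15 to 0.0014 in the kidney, and Phlda3 from -1.06 to 0.12, Sesn2 from -0.66 to 0.015, Cdkn1a from -0.15 to 0.48 and Ppm1d from -0.062 to 0.25 in WAT. Trp53 in the liver was -0.011 centred on the median and Bbc3 -0.22 under the replicate block. With the mean of probes Mdm2 was 0.047, Bax -0.032 and Ppm1d 0.049 in the lung, and Mdm4 0.14 in the kidney. With spike-in scaling Bax was -0.033 in the lung, and in the kidney Mdm2 was 0.31, Mdm4 0.32 and Ppm1d 0.19. After quantile normalization Mdm2 was 0.24 in the kidney. Same-numbered mice did not deviate together, so the replicate block is no paired analysis of these animals. Signal over background limits Eda2r, whose young liver and kidney levels are only bounds.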
